A study of Caenorhabditis elegans with 9 samples.

Results

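The exons described here are cassette exons that were measured in *smg-1* mutants and wild-type worms but have no *smg-2* values of their own. An exon was taken in where it was not among the deposited *smg-2* exons, or stood there with the mutant usage of the *smg-1* comparison to within 1e-06. There were 287 such exons among the 785 cassette exons of the *smg-1* comparison, 165 absent from the *smg-2* exons and 122 repeated in them. Of the 287, 284 had at least 2 values in each genotype and were tested, within a fit over 782 exons. The other 498 tested exons have *smg-2* values of their own and serve as the comparison.

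The *smg-1* libraries (genotype TR1331, labelled a knockout in the N2 background, a single strain) and the wild-type N2 libraries came from whole L4 larvae, with 3 biological replicates per genotype. Poly(A) RNA was sequenced, and the deposited values give, per library, the share of an exon's junction reads that skipped it. The percent spliced in (PSI) was taken here as the percentage of junction reads that did not skip the exon, and each deposited event compares 2 junctions that share a splice site. In whole animals, fewer cells of a type and less RNA per cell cannot be told apart, nor can a shift of PSI within cells from a shift in which cells express the gene. Gene levels, that of *smg-1* included, are not analysed here.

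Nonsense-mediated mRNA decay (NMD) is the pathway by which cells destroy mRNAs whose translation ends too early. SMG-1 is the protein kinase of the pathway, and its substrate SMG-2, the worm UPF1, is an RNA helicase. Worms survive without NMD, unlike flies and mice. An exon that brings a premature stop codon into the mRNA is often called a poison exon, and splicing factor genes are well known for carrying them. Skipping of an exon whose length is not a multiple of 3 shifts the reading frame instead, and usually leads to an early stop downstream.

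The exons below were read from the WBcel235 genome (RefSeq) and are shown because they changed between the genotypes and hold, or lack, such a stop. The *rsp-7* exon (chrII:10659787-10659862, plus strand) and the *rsp-8* exon (chrIII:11826643-11826735, plus strand) lie in genes of the SR family of splicing factors. The exons of *F11E6.4* (chrIV:17469774-17469881, minus strand), *vab-23* (chrII:11900952-11901064, minus strand) and *sur-7* (chrX:16377988-16378097, plus strand) also rose in *smg-1*. In these, the capitals mark the in-frame stop codon that ends translation when the exon is included.
rsp-7: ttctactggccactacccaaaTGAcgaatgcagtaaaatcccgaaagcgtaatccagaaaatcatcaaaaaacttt
rsp-8: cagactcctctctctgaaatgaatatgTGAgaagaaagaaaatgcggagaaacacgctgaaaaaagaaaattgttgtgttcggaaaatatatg
F11E6.4: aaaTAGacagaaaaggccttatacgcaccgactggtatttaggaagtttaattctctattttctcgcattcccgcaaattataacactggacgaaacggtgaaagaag
vab-23: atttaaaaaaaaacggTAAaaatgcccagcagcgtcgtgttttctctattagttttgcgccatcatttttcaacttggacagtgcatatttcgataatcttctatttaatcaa
sur-7: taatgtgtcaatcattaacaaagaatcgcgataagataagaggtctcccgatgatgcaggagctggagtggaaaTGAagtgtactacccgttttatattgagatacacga
The exons of *clec-199* (chrIV:17354408-17354440, plus strand) and *ugt-2* (chrV:10399392-10399434, plus strand) fell in *smg-1*, carry no in-frame stop and are shown for contrast. The first is 33 nt long and keeps the frame, and the second is 43 nt long and shifts it when skipped.
clec-199: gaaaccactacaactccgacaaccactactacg
ugt-2: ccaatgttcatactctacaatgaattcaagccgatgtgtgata

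Each exon was tested with limma on logit-transformed PSI, with p-values adjusted over the 782 exons. A call needed an adjusted p under 0.05 and means more than 10 points apart. Of the 284 exons, 31 were called, which is 10.9%, against a background of 12.8% over all tested exons. PSI was higher in *smg-1* for 22 of them (7.75%, background 6.27%) and lower for 9 (3.17%, background 6.52%). Rises therefore outnumbered falls here in this fit, whereas among the 498 exons with their own *smg-2* values 27 rose and 42 fell. That difference between the groups of exons was not tested. The order was reversed in an alternative fit with inclusion reads halved, which gave 16 rises and 28 falls. Halving assumes inclusion counted over both junctions of an exon, whereas each deposited event names only 2 junctions, the skipping one included. The count of called exons was 100 over all 782.

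In each of the 31, the 3 *smg-1* values lay wholly above or wholly below the wild-type values. Over all 284 exons, the *smg-1* values lay wholly above in 51 (background 15.7%) and wholly below in 64 (background 19.6%). The mean PSI of these exons in *smg-1* ran between 5.03% and 95%, whereas wild-type means spanned 0% to 100%. An exon with a wild-type mean under 5% could thus only rise and one over 95% could only fall, because the table holds no mutant mean outside those bounds. This applied to 127 of the 284 exons, and among them to 17 of the 22 rises and 6 of the 9 falls. With both means held to 5-95% and the fit repeated over 576 exons, 3 rises and 1 fall were called among 157 exons with no *smg-2* values of their own.

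**Figure D1:**
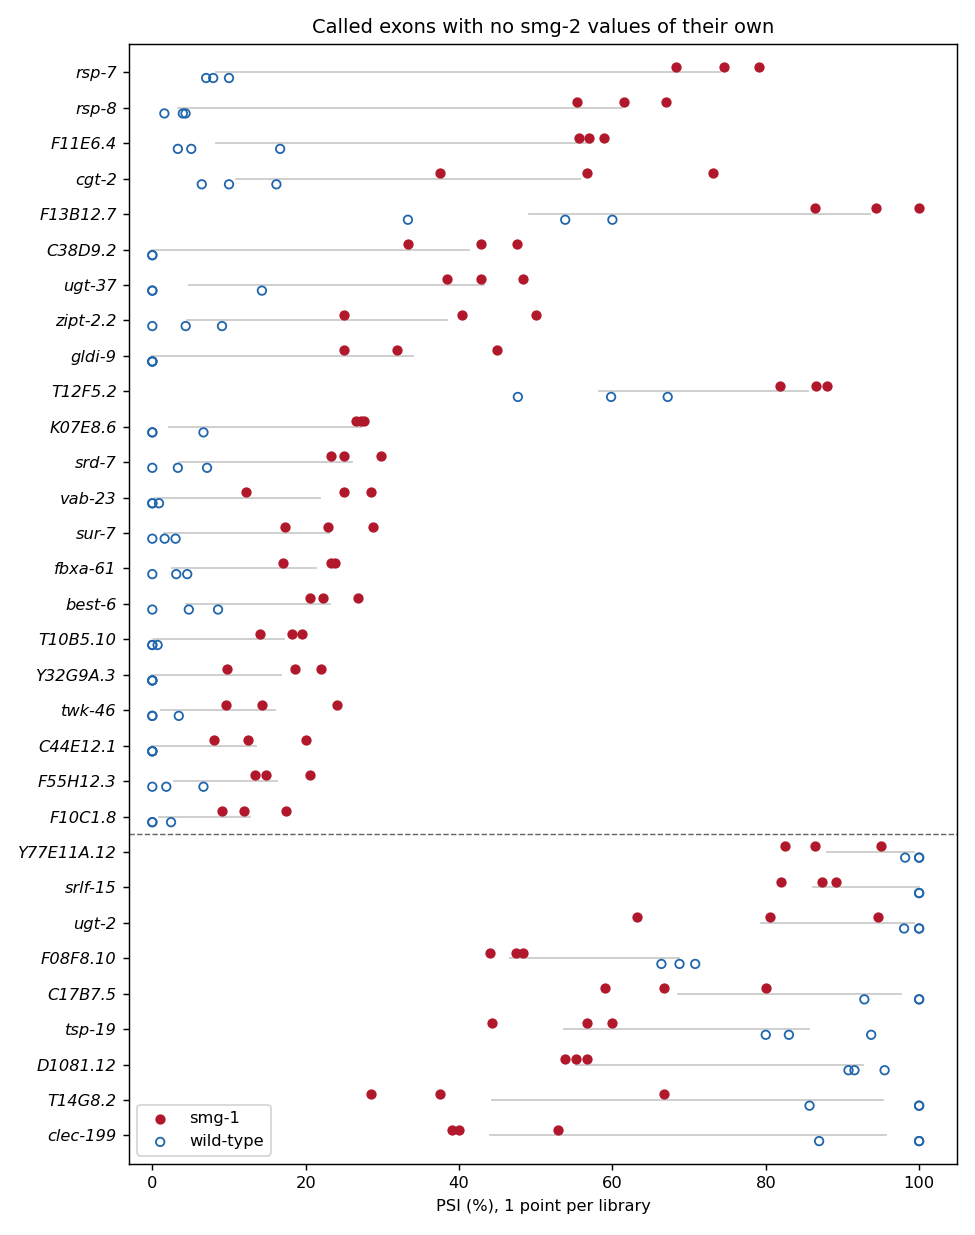
Each row is a called exon, with PSI (%) on the x axis, filled points for the 3 *smg-1* libraries and open circles for the wild-type libraries, and a grey line between the means. The 22 rises stand above the dashed line and the 9 falls below it, and in no row do the genotypes overlap.

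**Figure D2:**
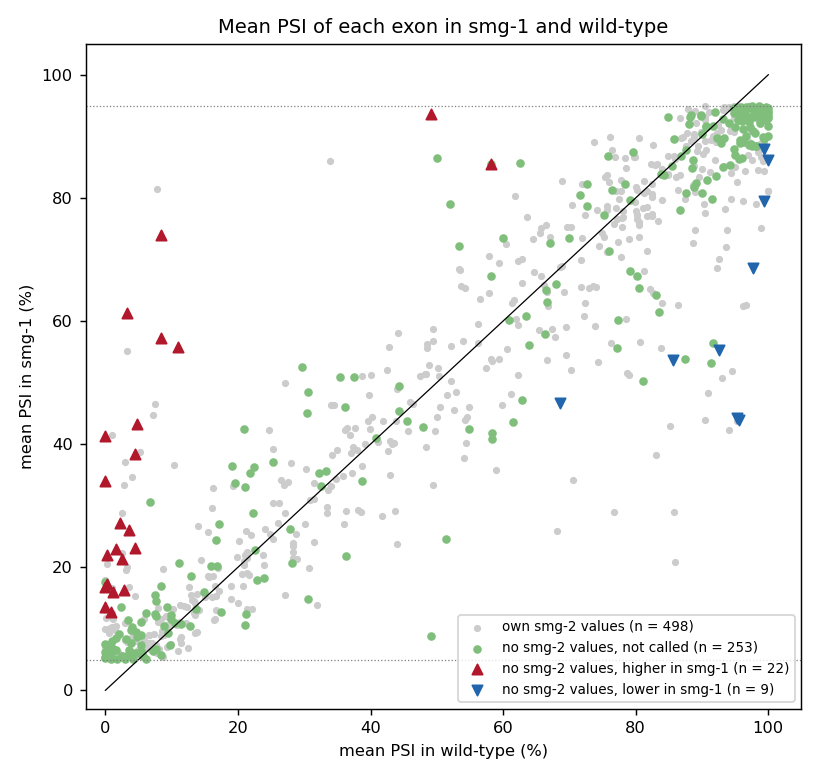
Mean PSI (%) of each of the 782 exons in *smg-1* (y axis) against wild-type (x axis), with the diagonal of no change and dotted lines at 5% and 95%. Triangles mark the 31 called exons with no *smg-2* values of their own, green points the other 253 and grey points the 498 with *smg-2* values, and no point lies outside the dotted lines in *smg-1*.

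The largest rises were in splicing factor genes. SR proteins bind exonic RNA and help the spliceosome to define exons, and *rsp-7* and *rsp-8* are worm members of the family. The 76-nt exon of *rsp-7* was included at 74.6%, 68.3% and 79.2% in *smg-1*, against 7.02%, 7.94% and 10% in wild-type. The included isoform thus made up most junction reads in each *smg-1* library and a small share in each wild-type library. The difference of means was 65.7 points (adjusted p = 0.00051), and the median library held 530 junction reads. Included, the exon would end translation after 137 residues, 363 nt before the last exon junction, where the skipped isoform reads 452 residues.

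The *rsp-8* exon was deposited under the name *F45H7.10*, which the annotation gives to a non-coding RNA elsewhere on the chromosome, but it lies inside *rsp-8*. It is 93 nt long, a multiple of 3, and is not in an annotated coding transcript. Its PSI was 61.5%, 67.0% and 55.4% in *smg-1* and 3.98%, 1.57% and 4.33% in wild-type, a difference of 57.98 points (adjusted p = 0.000766). As exon 2 of 6 it would leave 26 of 309 residues, so a length that keeps the frame did not keep it open. The third member of the RNA processing list here, *icln-1*, a chaperone of spliceosomal snRNP assembly, averaged 34.01% ± 4.59 in *smg-1* and 38.7% ± 1.99 in wild-type (SD, n = 3 each) and was not called (adjusted p = 0.64). The list therefore had 2 rises among 3 exons (66.7%, background 6.27%), but it was chosen with earlier results of these data known. Its 21 exons with *smg-2* values had 3 rises (14.3%) and 10 falls (47.6%, background 6.52%), and the contrast was not tested.

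On the list of lectins, glycans and conjugation, 2 of 7 exons rose (28.6%, background 6.27%) and 2 fell (28.6%, background 6.52%). An exon of *cgt-2*, which encodes a ceramide glucosyltransferase, had a PSI of 73.2%, 56.7% and 37.5% in *smg-1* and 16.2%, 10% and 6.45% in wild-type. The *smg-1* values were spread widely but all exceeded the highest wild-type value, and the difference was 44.9 points (adjusted p = 0.0118). In *ugt-37*, a UDP-glucuronosyltransferase gene, an 82-nt exon was at 48.4%, 38.5% and 42.9% in *smg-1* and at 14.3%, 0% and 0% in wild-type (38.5 points, adjusted p = 0.0243). Its median library held only 7 junction reads, and edgeR on the recovered reads did not call it (adjusted p = 0.081). Inclusion would leave 120 of 443 residues of CGT-2 and 52 of 528 of UGT-37.

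The falls on that list differed in kind. The 33-nt exon of *clec-199*, a C-type lectin gene, was at 39.0%, 40% and 52.9% in *smg-1*, against 87.0%, 100% and 100% in wild-type, a fall of 51.7 points (adjusted p = 0.012). Both isoforms keep the frame, with 667 and 656 residues, so no early stop is predicted for either. The 43-nt exon of *ugt-2* was at 63.2%, 94.6% and 80.5% in *smg-1* and at 100%, 98.0% and 100% in wild-type (adjusted p = 0.0202). Its *smg-1* libraries disagreed by over 30 points, and the call was absent with limma on PSI itself (adjusted p = 0.165). The 3 uncalled exons were in *ugt-53* (11.4% ± 5.04 in *smg-1*, 3.46% ± 4.11 in wild-type), *clec-80* (93.2% ± 7.01 and 97.7% ± 2.18 in the same order) and *clec-239* (20.7% ± 5.02 and 11.1% ± 15.7, the last from 2 libraries).

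Ion channel genes gave 2 rises, no fall and 11 uncalled exons, and the share called of 15.4% was near the background of 12.8%. A 202-nt exon of *twk-46*, of the TWK potassium channel family, was at 9.62%, 14.3% and 24.1% in *smg-1* and at 3.45%, 0% and 0% in wild-type (adjusted p = 0.0115). A 97-nt exon of *best-6*, a bestrophin chloride channel gene, was at 26.8%, 20.5% and 22.2% in *smg-1* and at 8.57%, 0% and 4.76% in wild-type (adjusted p = 0.044). Both carry an in-frame stop, and inclusion would leave 52 of 319 and 110 of 382 residues. Among the uncalled, *best-22* averaged 13.5% ± 4.48 in *smg-1* and 9.28% ± 2.18 in wild-type (SD, n = 3 each). *egl-19*, the L-type calcium channel gene, averaged 6.32% ± 3.68 in *smg-1* and 5.39% ± 4.13 in wild-type. The genotypes overlapped in both, as they did in *unc-36*, a calcium channel subunit gene, at 10.8% ± 3.16 in *smg-1* and 11.3% ± 4.82 in wild-type. *slo-1*, the BK potassium channel gene, averaged 15.97% ± 1.89 in *smg-1* and 14.9% ± 8.07 in wild-type, again with overlap. The adjusted p of these 4 ran between 0.427 and 0.994.

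Other lists gave 1 rise each, in 1 of 8 exons on the transcription list, 1 of 5 on the matrix and cuticle list, 1 of 8 on the metabolism and transport list and 1 of 1 on the ubiquitin list. With 1 call a list, these counts say little beside the background of 6.27%. The rise on the matrix and cuticle list was in *sur-7*, and that on the transcription list in *vab-23*. Both genes were entered by name on lists chosen with earlier results of these data known. The other 4 exons of the matrix and cuticle list were not called. The 113-nt exon of *vab-23*, needed for closure of the embryonic epidermis, was at 25.0%, 12.2% and 28.6% in *smg-1* and at 0%, 0% and 0.87% in wild-type (21.6 points, adjusted p = 0.000967). The 110-nt exon of *sur-7*, a gene found as a suppressor of activated Ras, was at 22.9%, 28.8% and 17.3% in *smg-1* and at 0%, 3.03% and 1.61% in wild-type (21.5 points, adjusted p = 0.00224). These exons are nearly silent in wild-type. Both kept their calls in each alternative fit that tested them, which the fit with both means held to 5-95% could not. *zipt-2.2*, of the ZIP zinc transporter family, carried a 58-nt exon at 40.4%, 25.0% and 50% in *smg-1* and at 4.35%, 0% and 9.09% in wild-type (33.98 points, adjusted p = 0.0211). It lies in the 5' untranslated region and holds 1 ATG. *fbxa-61*, an F-box gene and the only ubiquitin list member here, rose to 21.4% ± 3.77 in *smg-1*, against 2.56% ± 2.33 in wild-type (SD, n = 3 each, adjusted p = 0.00977).

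On the remaining lists nothing was called, and lists this short would hold few calls at the background of 12.8%. This was so for 6 exons in synaptic genes, 8 in muscle and cytoskeletal genes and 5 in signalling genes, and the ribosomal list had no exon with missing *smg-2* values. The 28-nt microexon of *tnt-3*, a troponin T gene, was at 59.8%, 57.5% and 63.2% in *smg-1* and at 65.5%, 65.7% and 51.3% in wild-type. The genotypes overlapped, and the difference of -0.64 points was inside their spread (adjusted p = 0.956). A 173-nt exon of the polarity gene *par-3* averaged 17.9% ± 6.24 in *smg-1* and 22.8% ± 12.3 in wild-type (adjusted p = 0.761). *egl-8*, the phospholipase C beta gene, stood at 6.39% ± 0.306 in *smg-1* and 7.11% ± 3.46 in wild-type. *unc-16*, a JIP3-type scaffold gene, stood at 5.74% ± 1.06 in *smg-1* and 3.40% ± 0.561 in wild-type without overlap, and did not pass the test (adjusted p = 0.167). In the intermediate filament gene *ifc-1*, a 66-nt exon with an in-frame stop was at 9.26%, 7.00% and 2.61% in *smg-1* and at 0% in all 3 wild-type libraries, which passed the test (adjusted p = 0.018) but not the 10-point threshold. On the signalling list the same held for *rga-5*, named after its values were seen, at 7.97% in *smg-1* and 0.94% in wild-type (adjusted p = 0.0118). It held too for *rga-8*, lower in *smg-1* at 94.1% against 99.3% (adjusted p = 0.0142). The genotypes did not overlap in either.

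Among other uncalled exons of the lists the same held for the mitochondrial assembly factor gene *nuaf-3*, at 7.38% ± 5.40 in *smg-1* and 0.17% ± 0.294 in wild-type (adjusted p = 0.0215). Exons of other genes passed the test with PSI lower by less than 10 points. The acyltransferase gene *acl-12* averaged 94.6% in *smg-1* and 99.1% in wild-type (adjusted p = 0.00629). *nhr-95*, a nuclear receptor gene, averaged 93.0% in *smg-1* and 100% in wild-type (adjusted p = 0.00207). In both the genotypes did not overlap, and the skipped isoform is the one with the early stop. *tcer-1*, *coa-4*, *cdc-14*, *eva-1*, *lsy-12*, *vab-10*, *par-1*, *acl-4*, *nhr-58*, *cdh-8*, *cdh-5*, *col-99*, *frpr-19* and *rbf-1* did not pass the test, with adjusted p between 0.167 and 0.956 (limma). *rbf-1*, the rabphilin gene, had the largest difference of these, at 67.3% ± 11.2 in *smg-1* and 80.2% ± 11.8 in wild-type (SD, n = 3 each).

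Of the 220 exons in genes on no list, 19 were called (8.64%, background 12.8%). *F11E6.4* had a 108-nt exon at 56.9%, 55.7% and 58.9% in *smg-1*, against 3.33%, 16.7% and 5.08% in wild-type (48.8 points, adjusted p = 0.00551). Its stop is the second codon read in full, so 25 of 129 residues would be lost. *C38D9.2* had a 129-nt exon at 33.3%, 47.6% and 42.9% in *smg-1* and at 0% in both wild-type libraries with a value (adjusted p = 0.000714), in the 5' untranslated region with 2 ATG triplets. *gldi-9*, deposited as *Y71H2AM.15*, had a 165-nt exon at 31.9%, 25.0% and 45% in *smg-1* and at 0% in all wild-type libraries (adjusted p = 0.00051), which would leave 34 of 832 residues. Those wild-type zeros rest on few reads, with 5 and 4 junction reads for *C38D9.2* and 13, 1 and 6 for *gldi-9* in the wild-type libraries.

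*F13B12.7* had the highest *smg-1* level of the rises, at 86.4%, 94.4% and 100%, against 33.3%, 60% and 53.9% in wild-type (adjusted p = 0.0243), and its 117-nt exon holds the annotated start codon. A 23-nt exon of *T12F5.2* was at 81.9%, 88.0% and 86.6% in *smg-1* and at 59.8%, 47.7% and 67.2% in wild-type (27.3 points, adjusted p = 0.0142). It holds no stop, but shifts the frame so that translation would end after 51 of 329 residues. *K07E8.6*, whose exon was deposited as *Y41C4A.26*, rose to 27.2% ± 0.574 in *smg-1*, against 2.22% ± 3.85 in wild-type (adjusted p = 0.0112). *srd-7*, a chemoreceptor gene, rose to 26.1% ± 3.40 in *smg-1*, against 3.49% ± 3.57 in wild-type (SD, n = 3 each, adjusted p = 0.0168). Both have a stop in a triplet exon, of 108 nt and 153 nt. The other 5 rises, in *T10B5.10*, *Y32G9A.3*, *C44E12.1*, *F55H12.3* and *F10C1.8*, measured 11.98 to 17.0 points and lie outside the rule for named genes, so they were chosen after their values were seen. Of these *T10B5.10* was the best covered, at 13.98%, 18.2% and 19.5% in *smg-1* and 0.69%, 0% and 0% in wild-type (adjusted p = 0.00051).

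Of the remaining falls, those of *D1081.12* and *F08F8.10* were read most deeply. The exon of *D1081.12* was at 56.7%, 55.2% and 53.9% in *smg-1*, against 90.8%, 91.6% and 95.5% in wild-type, a change of -37.4 points (adjusted p = 0.0016). Skipping would leave 33 of 169 residues, and that stop lies in the last exon. *F08F8.10* was at 47.5%, 44.1% and 48.4% in *smg-1* and 68.8%, 70.8% and 66.4% in wild-type (-22.01 points, adjusted p = 0.0202), and skipping would leave 410 of 523 residues. *tsp-19*, a tetraspanin gene, was at 60%, 44.3% and 56.7% in *smg-1* and at 83.0%, 93.8% and 80% in wild-type (-31.9 points, adjusted p = 0.0263).

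Falls of other exons were read from fewer reads or nearer the ceiling. *T14G8.2* was at 28.6%, 37.5% and 66.7% in *smg-1* and at 100%, 100% and 85.7% in wild-type (-51.0 points, adjusted p = 0.0211), with 7, 8 and 6 junction reads in the *smg-1* libraries. *C17B7.5* averaged 68.6% ± 10.6 in *smg-1* and 97.6% ± 4.12 in wild-type (adjusted p = 0.0142). *srlf-15*, deposited as *F33A8.10*, averaged 86.2% ± 3.74 in *smg-1* and was at 100% in the 2 wild-type libraries with a value (adjusted p = 0.0022). These 3 share a wild-type level close to full inclusion. *Y77E11A.12* had the smallest fall, with 88.0% ± 6.42 in *smg-1* and 99.4% ± 1.05 in wild-type (-11.4 points, adjusted p = 0.0109).

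With 3 libraries per genotype, many calls needed all of them. Of the 31, 9 were called in each alternative fit that tested them, namely *rsp-7*, *rsp-8*, *F11E6.4*, *C38D9.2*, *gldi-9*, *vab-23*, *sur-7*, *srlf-15* and *D1081.12*. The fit with both means held to 5-95% could test only *rsp-7*, *F11E6.4* and *D1081.12* of these. The wild-type means of the others lie outside those bounds. Without *smg-1* replicate 2 or without *smg-1* replicate 3 the rises numbered 13 in place of 22, and without *smg-1* replicate 3 the falls numbered 4 in place of 9. Without wild-type replicate 2, the library with the fewest reads, there were 14 falls. *C38D9.2* and *srlf-15*, with 2 wild-type values each, could not be tested without either of those. Both were tested in 11 alternative fits, against 16 for *rsp-7*. At a threshold of 20 points *srlf-15* was not called. *F55H12.3*, *T14G8.2* and *ugt-37* each lost the call in 5 of the 6 leave-outs, with adjusted p of 0.0506 to 0.115, 0.0508 to 0.0854 and 0.055 to 0.0991. *best-6* lost it without any 1 *smg-1* library or wild-type replicate 3 (0.0799 to 0.143). *clec-199* (0.0525 to 0.0567), *srd-7* (0.0651 to 0.0696) and *tsp-19* (0.0673 to 0.101) lost it without any 1 *smg-1* library.

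The other losses were narrower. Without *smg-1* replicate 2 or 3 the adjusted p was 0.0519 to 0.0575 for *K07E8.6*, 0.0614 to 0.0633 for *T12F5.2* and 0.0504 to 0.0526 for *twk-46*. Without *smg-1* replicate 1 or 3 it was 0.0776 to 0.0983 for *zipt-2.2* and 0.0611 to 0.0732 for *C17B7.5*. It was 0.0525 for *cgt-2* without *smg-1* replicate 2 and 0.0526 for *fbxa-61* without *smg-1* replicate 3. *Y77E11A.12* moved by 8.64 points without *smg-1* replicate 3 or had an adjusted p of 0.0523 without *smg-1* replicate 2, and *F10C1.8* moved by 9.68 points without *smg-1* replicate 3. *F08F8.10* (0.0608 to 0.0751) lost its call without *smg-1* replicate 1 or 2 or wild-type replicate 1. *F13B12.7* (0.0625 to 0.0779) lost it without *smg-1* replicate 2 or wild-type replicate 1 or 3, and *ugt-2* (0.0612 to 0.0948) without *smg-1* replicate 3 or wild-type replicate 1 or 3. The direction held in all of these.

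What the isoforms encode was predicted for each exon by adding it to, or taking it out of, an annotated coding transcript. PSI was not used for this, but the classes still went with the annotation and with wild-type PSI. An early stop was one that lay wholly before the last exon junction, at any distance from it. Of the 284 exons, 63 gave an early stop only when included, 60 only when skipped and 2 in both isoforms, and 56 could not be read because they lie outside the coding sequence, hold its start or stop, or fit no annotated coding transcript. The rest gave one in neither isoform. The skipping junction was annotated for all 63 exons with an early stop on inclusion, and 40 of them had a wild-type mean under 5%. The exon was annotated for all 60 with an early stop on skipping, and 39 of them had a wild-type mean over 95%. Of the 63 exons with an early stop on inclusion, 18 rose (28.6%) and none fell, and the median change was 6.67 points. Over all tested exons of this class, 43 of 130 rose (33.1%). Of the 60 with an early stop on skipping, none rose and 4 fell (6.67%), with a median change of -5.58 points. Over all tested exons of this class, 34 of 131 fell (26.0%). Of those with an early stop in neither, none rose and 2 fell, *clec-199* and *D1081.12*, with a median change of -0.11 points. Of the 22 rises, 17 have a stop codon that begins in the exon itself, and 8 of the 18 rises with a predicted early stop are triplet exons.

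The direction of many of these exons was fixed by the bounds on the mutant means. The contrast was therefore also read in exons with a wild-type mean of 5-95% alone, which could move either way but not equally far. The median wild-type mean was 10.9% where the early stop came on inclusion and 86.8% where it came on skipping. With the mutant bounds and the 10-point threshold, many of these exons could not be called in the opposite direction. The counts of calls below therefore remain partly fixed by the bounds. There, 4 of 23 exons with an early stop on inclusion rose (17.4%) and none fell. With an early stop on skipping, 1 of 21 fell (4.76%) and none rose, and of 73 with neither, 1 fell. Over all tested exons with such wild-type means, 9 of 53 rose (17.0%) and 20 of 64 fell (31.25%) in the same order of classes. The median changes among the exons with no *smg-2* values of their own were 5.27, -4.56 and 0.26 points. The *smg-1* values lay wholly above wild-type in 5 and wholly below in 1 of the 23, and wholly above in 1 and wholly below in 6 of the 21. The mean change ran the other way in 6 of the 23 exons with an early stop on inclusion and in 5 of the 21 with an early stop on skipping, and none of these was called. The largest, named after its values were seen, was in *Y71G12B.33*, with an early stop on inclusion, at 78.6%, 28.6% and 54.5% in *smg-1* and at 100% and 75% in the 2 wild-type libraries with a value. The genotypes overlapped, the change was -33.6 points (adjusted p = 0.22), and its median library held 9.5 junction reads. Its stop on inclusion lies only 5 nt before the last exon junction. Those without overlap were a deposited 2207-nt interval of *tnt-3*, at 56.1% ± 0.979 in *smg-1* and 64.0% ± 5.45 in wild-type, and an exon of the calcium channel gene *cca-1*, at 36.4% ± 5.24 in *smg-1* and 19.1% ± 5.45 in wild-type (SD, n = 3 each). Their adjusted p was 0.41 and 0.0615, and *cca-1* was chosen after its values were seen.

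**Figure D3:**
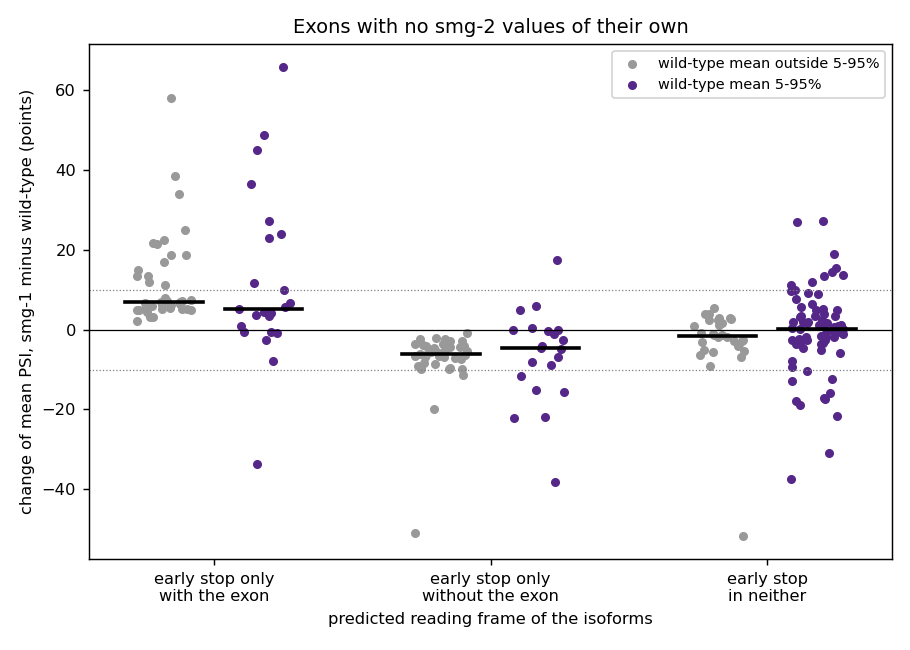
Change of mean PSI (*smg-1* minus wild-type, in points) by predicted reading frame for the exons with no *smg-2* values of their own, with grey points for wild-type means outside 5-95%, purple points for those within and bars for medians. Dotted lines mark 10 points either way, and the purple medians are 5.27, -4.56 and 0.26 points.

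The exons with *smg-2* values of their own differed mainly on the skipping side. With a wild-type mean of 5-95%, 19 of their 43 exons with an early stop on skipping fell, against 1 of 21 here, and 5 of their 30 with an early stop on inclusion rose, against 4 of 23 here. By length, 56 of their 173 non-triplet exons were called, against 18 of 151 here, and 13 of their 325 triplet exons, against 13 of 133 here. The groups were compared by counts, without a test. Coverage differed too, with a median of 70.8 junction reads per exon in the median library here and 130 there, and its part in the counts was not tested. Their largest changes were of like size, up to 73.8 points in *W01B6.3*, 52.2 points in *ttr-11* and 51.8 points in the splicing factor gene *rbm-39*, and down to -65.0 points in *fubl-1*, -56.8 points in *ilkp-1* and -51.8 points in *Y46E12BL.2*.

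**Figure D4:**
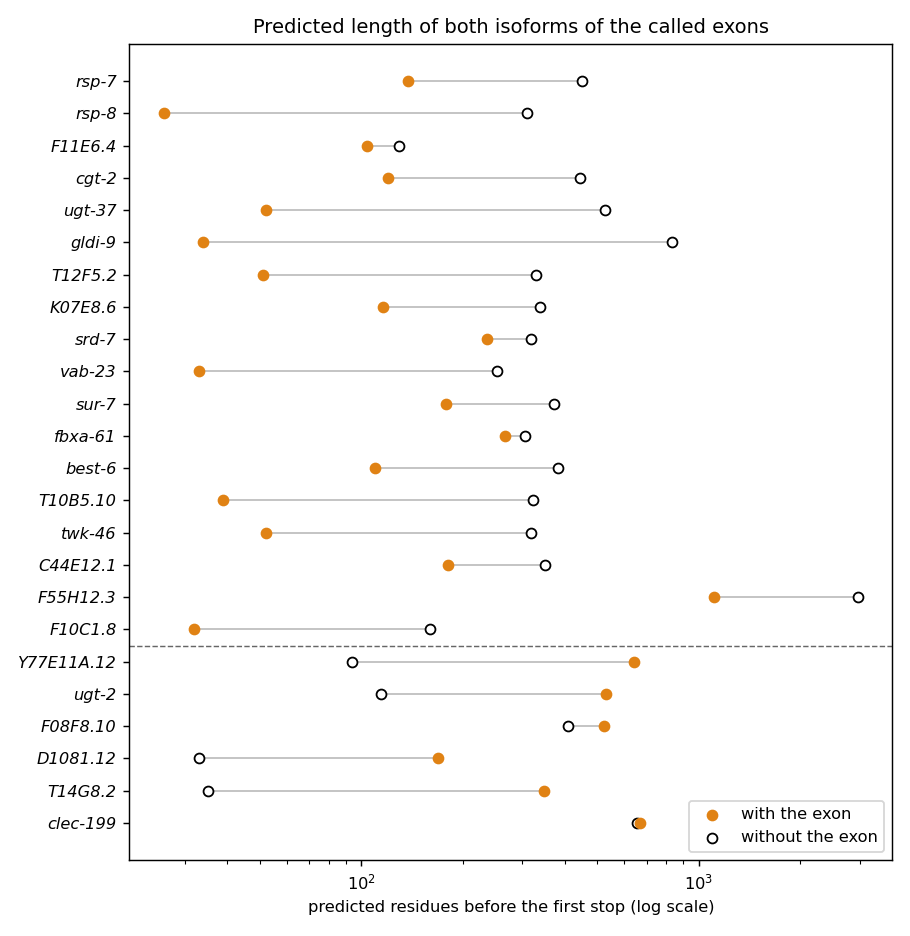
Predicted residues before the first stop, on a log scale, with the exon (filled) and without it (open) for the 24 called exons whose frame could be read. The 18 rises above the dashed line are all shorter with the exon, and the 6 falls below it are all shorter without it.

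The rises were mostly absent from the annotation. The exon was in an annotated coding transcript for 3 of the 22 rises and 6 of the 9 falls, against 175 of the 284 exons in all. The skipping junction was annotated for 21 of the 22 rises and 1 of the 9 falls, against 152 of 284. These traits were not particular to rises. Of all 56 exons with a wild-type mean under 5%, called or not, 10 were annotated and 55 had an annotated skipping junction. Those 56 include 17 of the 22 rises. Every one of the 785 exons is preceded by AG in the WBcel235 genome and 775 are followed by GT, so the deposited coordinates match that build. On the exon's own strand, the 6 bases before the exon were TTTCAG for 3 of the 22 rises and 2 of the 9 falls, against 27.1% of the 284 exons and 23.1% of all 782. The 6 bases after the exon were GTAAGT for none of the rises and 1 of the falls, against 20 of 284 and 66 of 782. The median length was 108 nt for rises and 102 nt for falls, against 114.5 nt over the 284.

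Exons absent from the *smg-2* values and exons repeated in them both held called exons. Of 163 absent exons, 15 rose (9.20%) and 4 fell (2.45%). Of 121 repeated exons, 7 rose (5.79%) and 5 fell (4.13%). The background over all tested exons was 6.27% for rises and 6.52% for falls, and these contrasts were not tested. The repeated group holds *rsp-7* and *rsp-8*, so the mutant values deposited for those exons are the same in both comparisons and cannot tell the mutants apart. Repeated values were read here as *smg-1* values, under the names of the *smg-1* comparison. Which mutant they were measured in was not tested. The wild-type usage was identical in all 620 exons that stand in both tables. Absent exons were read less deeply, with a median of 53.5 junction reads in the median library, against 108 for repeated ones.

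A further 44 of the 284 exons differed by more than 10 points without passing the test, 22 of them higher in *smg-1* and 22 lower, with a median of 20 junction reads in the median library. In 15 of them the genotypes did not overlap. The nearest to the threshold, named after its values were seen, was *tag-244*, at 49.5%, 50.7% and 59.3% in *smg-1* and 87.3%, 100% and 86.7% in wild-type, a change of -38.2 points (adjusted p = 0.0505). Conversely, 42 exons passed the test with 10 points or less, 15 higher and 27 lower. On size, *Y77E11A.12* (-11.4 points) and *F10C1.8* (11.98 points) lay just inside the threshold, and *F25F2.1* (-9.91 points) just outside it.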

How the data were processed

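Reads were aligned by the authors with STAR, and junctions quantified with JUM, an event needing 5 reads or more. The usage values were deposited as a fraction, the share of an event's junction reads on the skipping junction, and the read count values were deposited for that junction. Dividing counts by usage gave whole reads (relative tolerance 6e-05) in 100% of cells only with the count names of *smg-1* and wild-type exchanged. The usage names were kept, because usage named wild-type is the same in both mutants' tables. Where no read skipped, the total is unknown. The authors' own test statistics, PSI changes and mean PSI were deposited too and were not used. Depth over the 284 exons was 21190 to 43513 recovered reads in *smg-1* libraries and 18578 to 47457 in wild-type libraries, which limits precision. Of 786 exons, 1 had start and end inverted and 3 had under 2 wild-type values, and these were left out, and 16 of the 284 had a missing value.

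PSI was limited to 1-99%, logit-transformed and tested with limma 3.58.1 (lmFit, eBayes, R 4.3.3), with Benjamini-Hochberg adjustment. JUM's own test could not be run on the tables, so its thresholds were kept. Alternatives included edgeR 4.0.16 on recovered reads, other limits and scales, and leaving out each library. The script was tested on simulated data. Frames used the Ensembl WBcel235 annotation and the transcript with the longest coding sequence. Named genes were the 15 largest rises and falls without overlap, called members of 11 gene lists, genes the study names, up to 4 deeply read uncalled exons per list, and the 3 largest changes each way with own *smg-2* values. Members and lists were chosen with earlier results of these data known. Some results on items withheld for evaluation are not reported here.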

Additional observations from a re-analysis of the deposited data

How the results depend on the processing

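Deviations of same-numbered *smg-1* and wild-type libraries correlated at 0.0908, 0.0218 and -0.0296, against -0.113 to 0.0693 for differently numbered ones. With so few libraries these values cannot settle whether replicate numbers pair the libraries. With a replicate block, 4 falls and 11 non-triplet exons were called among exons with no *smg-2* values of their own, against 9 and 18, and 18 of 22 rises were shared. With edgeR on recovered reads there were 5 such falls, with weights by junction reads 3, and with limma on the exons of the edgeR test, added after seeing the data, 3. These 3 tests leave out exons with no skipping read in a library and could test 3 of the 9 falls. With inclusion reads halved, 31 exons rose and 77 fell in all. Here 16 rose and 28 fell, so falls outnumbered rises, and 32 non-triplet exons were called. With mean PSI of 5-95% in both genotypes, 7 rose and 18 fell in all, and here 3 rose, 1 fell, 3 non-triplet and 1 triplet exons were called. A threshold of 5 points gave 85 falls in all, and here 35 rises, 31 falls, 43 non-triplet and 23 triplet exons. A threshold of 20 points gave 27 rises and 29 falls in all, and here 14 rises and 11 non-triplet exons.

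Leaving out 1 library gave 13 to 23 rises and 4 to 14 falls here, 10 to 24 non-triplet and 7 to 13 triplet exons, and 33 to 50 rises and 36 to 58 falls in all. Counts of the rises here stayed within 1.5 times of 22 with other limits, eBayes trend, the read minimum and 3 values a side. Among named exons, only uncalled ones changed direction, each when 1 library was left out: *par-3* (-9.80 to 1.98 points), *unc-36* (-3.35 to 0.91), *cdc-14* (-8.26 to 2.38), *aqp-2* (-2.49 to 2.12), *cdh-8* (-12.4 to 7.27), *egl-19* (-1.17 to 3.24), *eva-1* (-3.18 to 4.01), *slo-1* (-3.28 to 4.71), *egl-8* (-2.19 to 1.18), *lsy-12* (-0.45 to 12) and *tnt-3* (-5.42 to 1.79). The causes were not tested.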

Other observations

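Exons outside the test had values of their own. *F55A11.8* was at 55.6%, 58.3% and 50% in *smg-1* and at 0% in the only wild-type library with a value. *emre-1* was at 60%, 80% and 50% in *smg-1* and at 100% in its only wild-type library. *F02D10.3* was at 88.2%, 83.3% and 92.9% in *smg-1* and at 50% in its only wild-type library. An event of *trp-2*, deposited with inverted coordinates, was at 76.7%, 73.9% and 83.3% in *smg-1* and at 54.5%, 0% and 80% in wild-type.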
